A study of Homo sapiens with 18 samples.

Results

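The 46 genes described here encode the subunits and dedicated assembly factors of the human proteasome. They are the protein-coding genes whose symbol is PSMA, PSMB, PSMC, PSMD, PSME, PSMF or PSMG followed by a number, found through the NCBI Gene ID of each entry, and they stand among 21662 IDs listed over all files. All 46 were listed in each of the 18 libraries, and all 46 were among the 14396 genes with enough counts to be tested. PSMC3IP and PSME3IP1, which code for other proteins, and 5 long noncoding RNAs with related symbols were left out. PSMA8, an alpha subunit of germ cells, and PSMB11, the beta subunit of the thymus, are not analysed here.

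The libraries come from 3 cell lines of NK/T cell lymphoma, a cancer of natural killer and T cells. SNT-8, SNK-10 and SNT-16 cells were each exposed for 12 h to icaritin, a prenylated flavonoid obtained from Epimedium plants, and the controls were the same lines exposed for 12 h to DMSO, the solvent. Each of the 6 groups (icaritin and DMSO in each line) held 3 libraries of total RNA. The labels call every sample wild type and give no other agent, and the dose of icaritin is not given in the sources used here. No label ties the replicates to different cultures, so p-values here measure the spread between libraries, which may be technical.

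The proteasome degrades proteins that carry ubiquitin chains. Its 20S core is a barrel of outer alpha rings (PSMA genes) around inner beta rings (PSMB genes), of which PSMB5, PSMB6 and PSMB7 carry the proteolytic sites. In cells exposed to interferon gamma, and in many lymphoid cells at rest, these are replaced by PSMB8, PSMB9 and PSMB10, and the resulting immunoproteasome supplies peptides to MHC class I molecules. The 19S particle caps the barrel: 6 ATPases (PSMC genes) unfold the substrate, and the PSMD subunits recognise ubiquitin and remove it. PA28 (PSME1, PSME2 and PSME3) and PA200 (PSME4) are alternative caps, PSMF1 is an inhibitor, and PSMG1 to PSMG4, PSMD5, PSMD9 and PSMD10 are chaperones that leave the finished particle. The transcription factor NFE2L1 is known to raise many of these subunits together when proteasome activity falls.

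The libraries held between 9526431 and 10100453 expected counts, the estimated fragments assigned to genes. All 10 T and NK cell marker genes were expressed, with summed levels between 1268 and 3101 FPKM (fragments scaled by transcript length and library size), while the B cell, fibroblast and epithelial lists summed to at most 3.05 FPKM and the myeloid list to at most 20.7 FPKM. In SNK-10 the T and NK list summed to 1268 to 1337 FPKM after icaritin and 1395 to 1416 FPKM in DMSO, and its part in the results of that line was not tested. In bulk RNA, fewer cells of a type and less RNA per cell cannot be told apart. The icaritin libraries of SNT-8 included a library, replicate 2, that stood further from its 2 partners than other replicates did from theirs (chi-square per gene of 5.96 and 8.18, against at most 4.13). Without that library 37 of the 46 genes fell after icaritin in SNT-8, as with it, and 0 rose, against 1 with it.

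In DMSO libraries the core subunit PSMB4 had the highest level, with a median of 348 FPKM over 9 libraries and a range of 298 to 371 FPKM. PSME2 (median 290 FPKM), PSMA7 (234 FPKM), PSME1 (231 FPKM) and PSMB8 (178 FPKM) came next. The PA28 subunits PSME1 and PSME2 and an immunoproteasome subunit were thus among the 5 most abundant of the 46 transcripts. PSME3, also of PA28, had a median of 68.4 FPKM. The lowest medians were those of the chaperones PSMD5 (12.4 FPKM), PSMG4 (13.5 FPKM) and PSMD9 (18 FPKM), followed by PSME4 (22.2 FPKM) and PSMF1 (24.3 FPKM). The chaperones PSMG2 (59.6 FPKM) and PSMG1 (55.6 FPKM) lay higher, above subunits such as PSMD11 (47.2 FPKM) and PSMD12 (32.2 FPKM). The range of PSME2 over the 9 DMSO libraries, 283 to 301 FPKM, lay above the 189 to 252 FPKM of PSMA7, its neighbour in the order, whereas the ranges of PSMA7 and PSME1 (219 to 263 FPKM) overlapped.

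**Figure D1:**
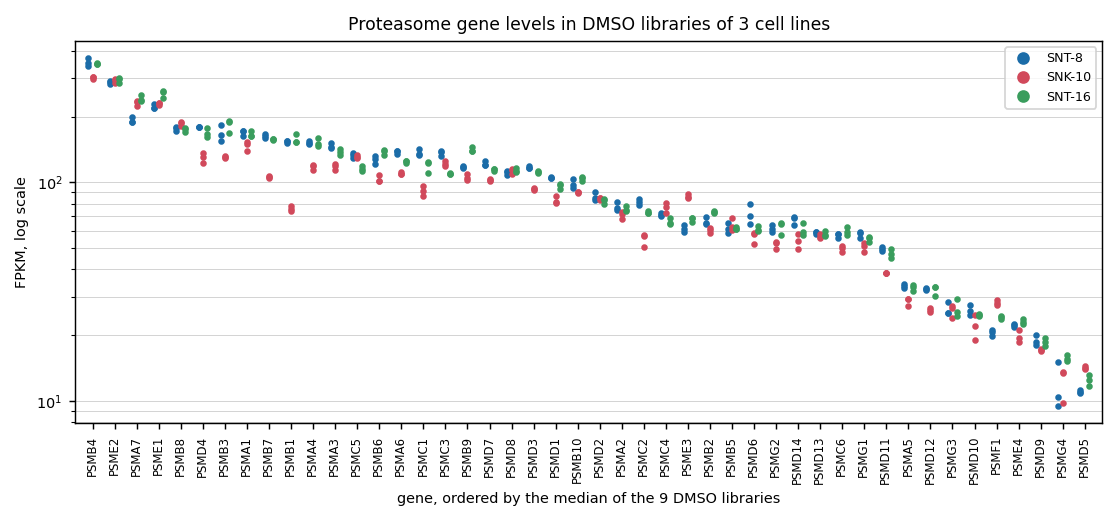
Level of each of the 46 genes in FPKM (log axis) in the 9 DMSO libraries, ordered by the median, with a point for each library coloured by cell line. PSMB4 stands highest at a median of 348 FPKM, PSMD5 lowest at 12.4 FPKM, and PSMB1 shows the 3 SNK-10 libraries apart from the other 6.

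After icaritin most proteasome genes were lower in every line, and the falls were modest. Calls rest on edgeR's quasi-likelihood test with an adjusted p (Benjamini-Hochberg over the 14396 genes) under 0.05, and a log2 fold change is icaritin minus DMSO, so a negative value means lower after icaritin. In SNT-8, 37 of the 46 genes fell and 1 rose, where 25% of all genes tested fell and 24% rose (49.1% called in all). In SNK-10, 34 fell and 1 rose, against 24% and 24.4% of all genes (48.4% called). In SNT-16, 25 fell and 2 rose, against 20.8% and 21.2% of all genes (42% called).

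The median log2 fold change of the 46 genes was −0.25 in SNT-8, −0.24 in SNK-10 and −0.14 in SNT-16. Over all genes tested the medians were 0.02, 0.01 and 0.02 in the same order of lines. The libraries of the 2 treatments did not overlap for 40 of the 46 genes in SNT-8, 33 in SNK-10 and 31 in SNT-16, against 54.1%, 55.2% and 52.7% of all genes tested. The log2 fold changes of single members ran between −0.69 and 0.14 in SNT-8, between −0.72 and 0.15 in SNK-10 and between −0.64 and 0.42 in SNT-16. As a share of the summed FPKM of a library, the 46 genes together made up 0.884% to 0.890% in the icaritin libraries of SNT-8, against 1.01% to 1.05% in its DMSO libraries. The shares were 0.734% to 0.763% after icaritin against 0.883% to 0.8997% in DMSO in SNK-10, and 0.962% to 0.986% after icaritin against 1.052% to 1.057% in DMSO in SNT-16. The icaritin and DMSO libraries did not overlap in this share in any line.

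**Figure D2:**
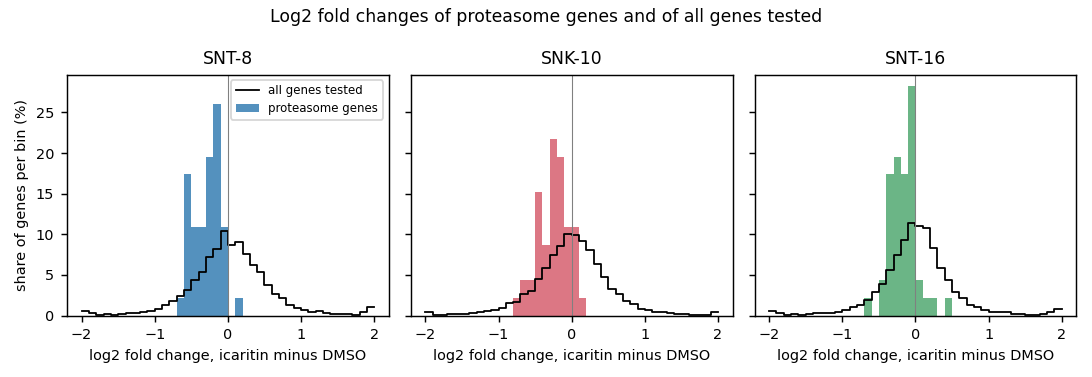
Share of genes (%) per bin of log2 fold change, icaritin minus DMSO, in the 3 lines; bars are the 46 proteasome genes and the black line is all 14396 genes tested, with the outermost bins holding everything beyond them. The bars lie left of the centre of the black line, with medians of −0.25 in SNT-8, −0.24 in SNK-10 and −0.14 in SNT-16.

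On the average of the 3 lines, 41 of the 46 genes fell and 1 rose, where 30% of all genes fell and 31.7% rose (61.7% called). The average calls of PSMB9, PSMF1 and PSMD9 were lost in some alternatives. PSMB9 was at −0.06 without SNT-8 icaritin replicate 1 (adjusted p = 0.0891). PSMF1 was at −0.05 without SNK-10 DMSO replicate 1 (adjusted p = 0.1105), and was also lost with DESeq2 and limma. PSMD9 was at −0.09 without SNT-16 icaritin replicate 1 (adjusted p = 0.0684). Of the 46 genes, 22 (47.8%) fell in all 3 lines, against 2065 of the 14396 genes tested (14.3%). These 22 were PSMA3, PSMA5 and PSMA7 of the alpha ring, PSMB2, PSMB5, PSMB6 and PSMB8 of the beta ring, the ATPases PSMC1, PSMC2, PSMC5 and PSMC6, the 19S subunits PSMD1, PSMD2, PSMD3, PSMD6, PSMD7, PSMD11 and PSMD12, the chaperones PSMD5 and PSMG4, and the PA28 subunits PSME2 and PSME3. The call of PSMA7 in SNT-16 did not pass in 8 of 26 alternatives (adjusted p between 0.00509 and 0.249). With edgeR, 0 members rose in all 3 lines, also at an unadjusted p under 0.05 and also with DESeq2 and limma. PSMA1, an alpha subunit, and PSMD10 passed the threshold in no line. The log2 fold changes of the 46 genes correlated between lines, with Pearson's r of 0.817 for SNT-8 and SNK-10, 0.872 for SNT-8 and SNT-16 and 0.733 for SNK-10 and SNT-16. These are descriptions across genes, which are not independent replicates, and the lines share no library.

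**Figure D3:**
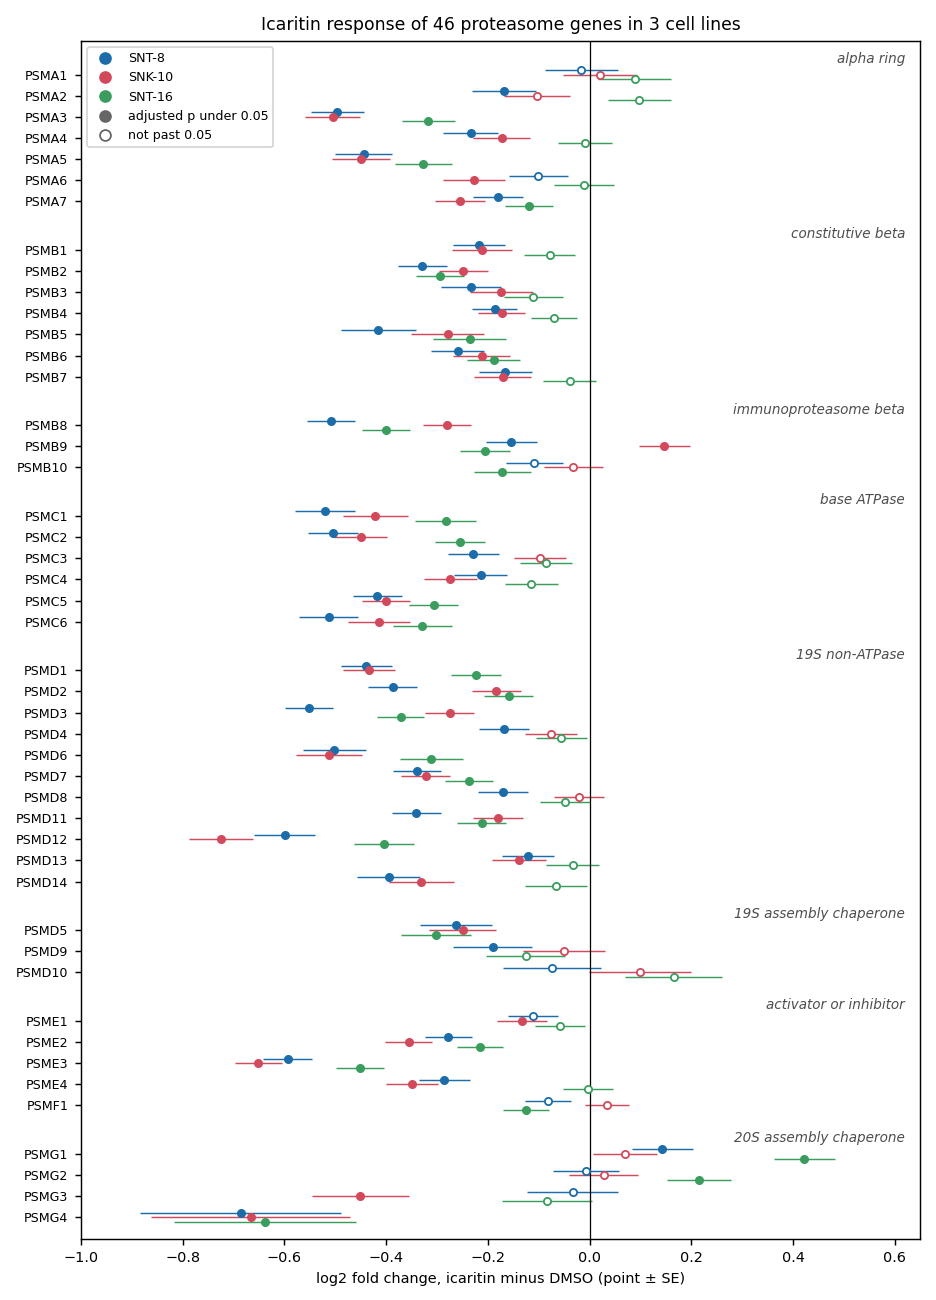
Log2 fold change (icaritin minus DMSO, point ± SE) of each of the 46 genes in SNT-8, SNK-10 and SNT-16, grouped by role; filled points have an adjusted p under 0.05. Most points lie left of 0, while PSMG1 in SNT-8 and SNT-16, PSMG2 in SNT-16 and PSMB9 in SNK-10 are filled and to the right of it.

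Most subunits of the 19S particle fell. Of the 17 subunits with a PSMC or PSMD symbol (6 ATPases and 11 others), 17 fell in SNT-8 with a median of −0.40, 14 in SNK-10 with a median of −0.32 and 11 in SNT-16 with a median of −0.22. ADRM1 and SEM1, which lack such a symbol, are not among these 17. PSMD12, a scaffold subunit of the lid, fell furthest among them. Its levels were 107, 100.2 and 84.5 CPM (counts scaled to library size by TMM) in icaritin libraries of SNT-8, against 149, 148 and 146 CPM in DMSO libraries. In SNK-10 they were 70.1, 68.4 and 77.7 CPM after icaritin, against 122, 117 and 119 CPM in DMSO. In SNT-16 they were 106, 106 and 108 CPM after icaritin, against 133, 146 and 145 CPM in DMSO. Every icaritin library thus lay below every DMSO library of its line. The fold changes were −0.60 ± 0.060 (SE, adjusted p = 5.93e-11), −0.72 ± 0.064 (adjusted p = 2.26e-12) and −0.40 ± 0.059 (adjusted p = 4.24e-07) on the log2 scale in SNT-8, SNK-10 and SNT-16.

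Among the ATPases, PSMC1, PSMC2, PSMC5 and PSMC6 fell in each line, with log2 fold changes between −0.52 and −0.26. PSMC6 averaged 64.4 ± 3.37 CPM after icaritin and 91.9 ± 2.08 CPM in DMSO (SD, n = 3 each) in SNT-8, a fall of 29.9% by the fit. PSMC3 fell in SNT-8 (−0.23 ± 0.050, adjusted p = 1.85e-04) and lay at −0.10 in SNK-10 and −0.09 in SNT-16, short of the threshold. PSMC4 fell in SNT-8 and SNK-10, at −0.21 and −0.27, and stood at −0.11 in SNT-16 (adjusted p = 0.0769). Of the other lid and base subunits, PSMD6 lay at −0.50 in SNT-8, −0.51 in SNK-10 and −0.31 in SNT-16, and all 3 passed the threshold. PSMD14, the deubiquitinase of the lid, fell in SNT-8 (−0.40 ± 0.061, adjusted p = 8.87e-07) and SNK-10 (−0.33 ± 0.064, adjusted p = 4.13e-05), and was at −0.07 in SNT-16 (adjusted p = 0.411). The ubiquitin receptor PSMD4 and the lid subunit PSMD8 fell in SNT-8, each by 0.17 on the log2 scale, and passed the threshold in neither other line. PSMD13 in SNT-8, at −0.12, passed narrowly (adjusted p = 0.0484), and not in 21 of 26 alternative settings, over which its adjusted p ran between 0.0383 and 0.210.

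In the 20S core, 12 of the 14 alpha and constitutive beta subunits fell in SNT-8 and 12 in SNK-10, with medians of −0.23 and −0.21, while 6 fell in SNT-16 with a median of −0.09. PSMA3 had 103, 108 and 103 CPM in icaritin libraries of SNT-8, against 145, 146 and 152 CPM in DMSO libraries. It fell by 0.50 in SNT-8, 0.50 in SNK-10 and 0.32 in SNT-16 on the log2 scale. PSMA5 lay close to it at −0.44, −0.45 and −0.33 in the same lines, each past the threshold. PSMA1 had 211 ± 19 CPM after icaritin and 214 ± 7.74 CPM in DMSO (SD, n = 3 each) in SNT-8, and its 3 log2 fold changes were −0.02, 0.02 and 0.09 with SE of 0.072 to 0.073. Transcripts of the alpha ring thus ranged between clear falls and values near 0. PSMB2 fell by 0.33, 0.25 and 0.29 in SNT-8, SNK-10 and SNT-16, and the abundant PSMB4 by 0.19 in SNT-8 and 0.17 in SNK-10, with −0.07 in SNT-16 (adjusted p = 0.22).

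The catalytic subunits were compared next: PSMB8, PSMB9 and PSMB10 of the immunoproteasome, and PSMB5, PSMB6 and PSMB7, whose places they take. PSMB8 fell in every line. It had 148, 139 and 149 CPM in icaritin libraries of SNT-8, against 202, 208 and 210 CPM in DMSO libraries, and the fold change was −0.51 ± 0.047 on the log2 scale (adjusted p = 9.39e-12). In SNK-10 it had 174, 179 and 184 CPM after icaritin, against 219, 212 and 222 CPM in DMSO (−0.28 ± 0.047, adjusted p = 3.4e-06). In SNT-16 it had 143, 148 and 159 CPM after icaritin, against 193, 199 and 201 CPM in DMSO (−0.40 ± 0.047, adjusted p = 4.3e-09). No icaritin library reached the level of a DMSO library of its line.

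PSMB9, the immunoproteasome counterpart of PSMB6, moved in opposite directions in different lines. In SNK-10 it had 120.4, 123 and 125 CPM after icaritin, against 115, 109.8 and 108 CPM in DMSO, a rise of 10.7% (0.15 ± 0.051, adjusted p = 0.0149). In SNT-8 it had 104, 113 and 114 CPM after icaritin, against 124, 123 and 121 CPM in DMSO (−0.15 ± 0.050, adjusted p = 0.00974). In SNT-16 it had 119, 129 and 123 CPM after icaritin, against 141, 147 and 140.1 CPM in DMSO (−0.21 ± 0.049, adjusted p = 6.82e-04). The groups did not overlap in any line, and in SNK-10 it is the icaritin libraries that are high. The difference of the responses was itself past the threshold, at 0.30 ± 0.071 for SNK-10 minus SNT-8 (adjusted p = 0.00351) and 0.35 ± 0.070 for SNK-10 minus SNT-16 (adjusted p = 4.8e-04). Both single-line calls are narrow. Without replicate 3 of the SNK-10 DMSO libraries the rise was 0.13 with adjusted p = 0.0725, and without replicate 2 it was 0.14 with adjusted p = 0.0532, where p ran between 0.00905 and 0.0725 over all alternatives. Without replicate 1 of the SNT-8 icaritin libraries the fall in that line was 0.11 with adjusted p = 0.0842, and with scaling by library size alone it was 0.11 with adjusted p = 0.0578, in a range of 0.00704 to 0.0842.

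PSMB10, the counterpart of PSMB7, fell in SNT-16. There it had 84.6, 96.3 and 91.6 CPM after icaritin, against 99.9, 104 and 103 CPM in DMSO (−0.17 ± 0.056, adjusted p = 0.0118). Without replicate 1 of those icaritin libraries it was −0.12 with adjusted p = 0.116, the highest of a range that began at 0.00179. Its log2 fold changes in SNT-8 and SNK-10 were −0.11 ± 0.056 and −0.03 ± 0.058, and a difference between the responses of the lines was not detectable (interaction adjusted p = 0.449).

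PSMB5, which carries the chymotrypsin-like site of the standard core, fell in every line. It had 64.9, 51.3 and 64.1 CPM in icaritin libraries of SNT-8, against 80.6, 75.5 and 84.2 CPM in DMSO libraries (−0.42 ± 0.073, adjusted p = 1.15e-05). In SNK-10 it had 64.2, 68.4 and 74.9 CPM after icaritin, against 91.6, 79.0 and 81.2 CPM in DMSO (−0.28 ± 0.072, adjusted p = 0.00158). In SNT-16 it had 65.0, 69.6 and 63.1 CPM after icaritin, against 76.8, 78.1 and 77.9 CPM in DMSO (−0.24 ± 0.072, adjusted p = 0.00779). PSMB6, with the caspase-like site, fell by 0.26, 0.21 and 0.19 in SNT-8, SNK-10 and SNT-16. PSMB7, with the trypsin-like site, fell by 0.17 in SNT-8 and in SNK-10, and in SNT-16 had 143, 163 and 157 CPM after icaritin, against 158, 159 and 159 CPM in DMSO, groups that overlap (−0.04 ± 0.052, adjusted p = 0.594). The PSMB7 call in SNT-8 was lost without icaritin replicate 3 (adjusted p = 0.0520, in a range that began at 3e-04), and that in SNK-10 without icaritin replicate 2 (0.0637, in a range that began at 7.29e-04). Of the constitutive trio, 3, 3 and 2 fell in SNT-8, SNK-10 and SNT-16, and of the immunoproteasome trio 2, 1 and 3 fell, with 1 rise in SNK-10.

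**Figure D4:**
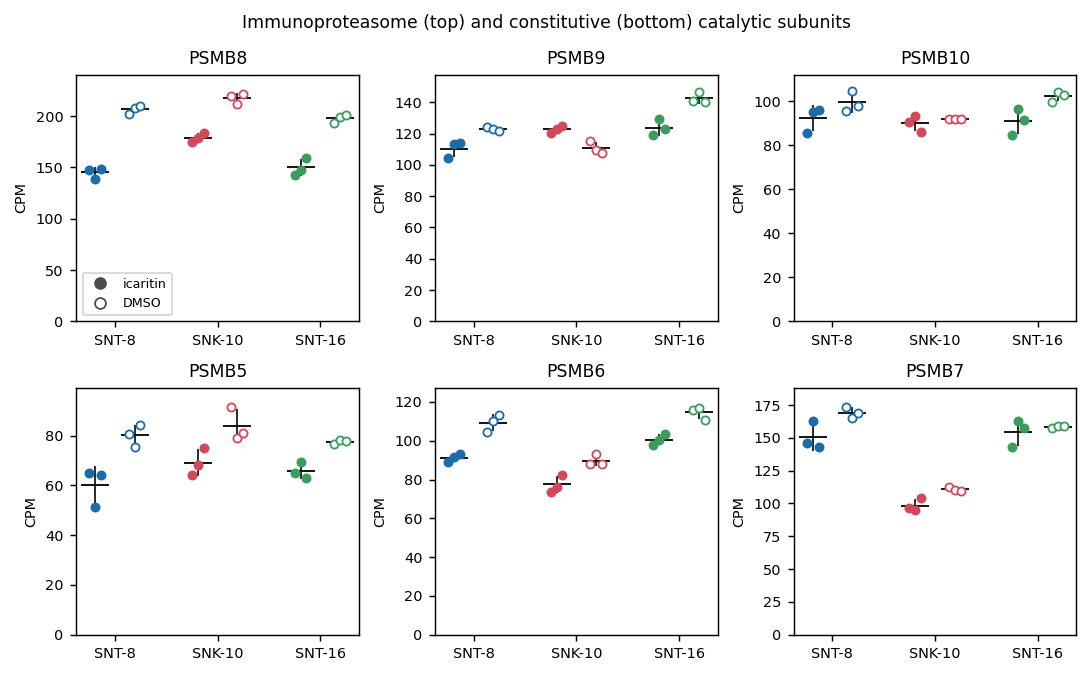
CPM of the 3 immunoproteasome catalytic subunits (top) and the 3 constitutive ones (bottom) in each library, icaritin (filled) left of DMSO (open) for each line, with mean and SD over 3 libraries. The 3 filled points lie below the open ones for PSMB8, PSMB5 and PSMB6 in every line, and above them for PSMB9 in SNK-10, where they sit between 120.4 and 125 CPM.

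Because FPKM is scaled by transcript length, each immunoproteasome subunit could be set against its counterpart. The ratio of PSMB8 to PSMB5 was 2.70 ± 0.293 after icaritin and 2.86 ± 0.15 in DMSO in SNT-8 (SD, n = 3 each, as for all ratios here). In SNK-10 it was 2.88 ± 0.096 after icaritin and 2.92 ± 0.183 in DMSO, and in SNT-16 2.53 ± 0.249 after icaritin and 2.83 ± 0.073 in DMSO. The differences were smaller than the larger SD in SNT-8 and SNK-10, and the libraries of the 2 treatments overlapped in all 3 lines. The ratio of PSMB9 to PSMB6 in SNK-10 was 1.31 ± 0.055 after icaritin and 1.02 ± 0.054 in DMSO, with no overlap. It was 0.995 ± 0.028 after icaritin and 0.927 ± 0.049 in DMSO in SNT-8, and 1.01 ± 0.041 after icaritin and 1.02 ± 0.021 in DMSO in SNT-16. The ratio of PSMB10 to PSMB7 was 0.628 ± 0.051 after icaritin and 0.603 ± 0.044 in DMSO in SNT-8. It was 0.940 ± 0.080 after icaritin and 0.851 ± 0.013 in DMSO in SNK-10. In SNT-16 it was 0.603 ± 0.005 after icaritin and 0.661 ± 0.011 in DMSO, lower after icaritin with no overlap. The immunoproteasome trio made up 58.9% to 60.9% of the summed FPKM of the 6 catalytic subunits after icaritin in SNK-10, against 57.9% to 58.7% in DMSO. The share was 51.2% to 52.8% after icaritin and 52.1% to 53.6% in DMSO in SNT-8, and 51.2% to 51.8% after icaritin and 53.5% to 54.5% in DMSO in SNT-16. In SNT-16 the share was lower and in SNK-10 higher after icaritin without overlap, and in SNT-8 the libraries overlapped; no test was run on these ratios and shares.

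**Figure D5:**
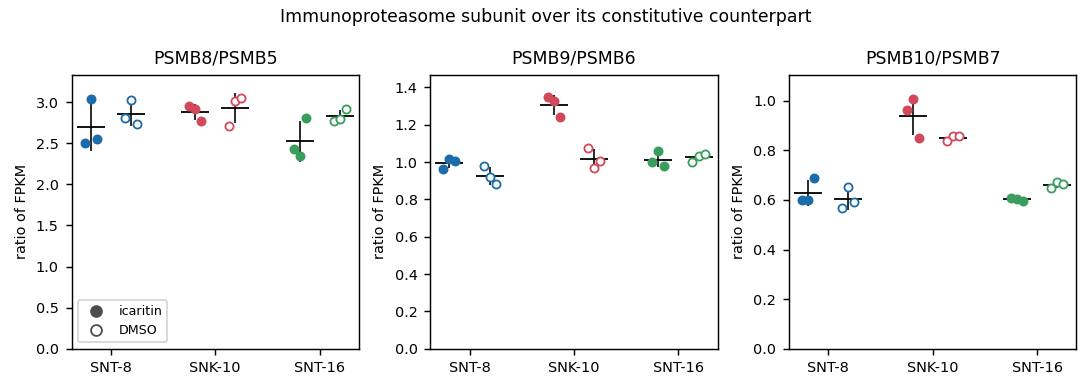
Ratio of the FPKM of each immunoproteasome subunit to that of its constitutive counterpart in each library, icaritin (filled) left of DMSO (open), with mean and SD over 3 libraries. PSMB9/PSMB6 in SNK-10 stands at 1.31 after icaritin and 1.02 in DMSO, while the points of PSMB8/PSMB5 overlap in each line. PSMB10/PSMB7 in SNT-16 is lower after icaritin without overlap.

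The caps other than 19S differed among themselves. PSME3, the nuclear PA28 gamma, had 143, 141 and 146 CPM in icaritin libraries of SNT-8, against 225, 216 and 208 CPM in DMSO libraries, a fall of 33.7% (−0.59 ± 0.048, adjusted p = 2.13e-13). It fell by 36.3% in SNK-10 (−0.65 ± 0.046, adjusted p = 6.83e-15) and by 26.8% in SNT-16 (−0.45 ± 0.047, adjusted p = 2.43e-10), without overlap of the groups. PSME2, the beta subunit of the interferon-inducible PA28, fell by 0.28, 0.36 and 0.22 on the log2 scale in SNT-8, SNK-10 and SNT-16. Its partner PSME1 fell in SNK-10 (−0.13 ± 0.049, adjusted p = 0.0230), where 211, 202 and 233 CPM after icaritin overlapped with 239, 238 and 232 CPM in DMSO. That call was lost without replicate 1 or 2 of the SNK-10 icaritin or DMSO libraries (adjusted p of 0.0609 to 0.189, in a range of 0.00118 to 0.189 over all alternatives). PSME4, which encodes PA200, had 139, 131 and 128 CPM after icaritin in SNT-8, against 159, 162 and 164 CPM in DMSO, and fell by 0.29 there and by 0.35 in SNK-10. In SNT-16 it averaged 162 ± 0.304 CPM after icaritin and 163 ± 4.16 CPM in DMSO (−0.00 ± 0.049, adjusted p = 0.967). The inhibitor PSMF1 fell in SNT-16 (−0.13 ± 0.045, adjusted p = 0.0208) and lay at −0.08 in SNT-8 and 0.03 in SNK-10, short of the threshold. The SNT-16 call was lost without icaritin replicate 1 or 2 or DMSO replicate 2 or 3 (adjusted p of 0.0543 to 0.0704, in a range of 0.00354 to 0.0704).

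The chaperones of the 20S core included PSMG1 and PSMG2, which besides PSMB9 were the only members that rose in a line. PSMG1 and PSMG2 form the PAC1-PAC2 pair that starts the alpha ring. In SNT-16, PSMG1 had 76.6, 82.1 and 85.0 CPM after icaritin, against 60.8, 59.0 and 62.1 CPM in DMSO, a rise of 34.0% (0.42 ± 0.060, adjusted p = 2.07e-07). PSMG2 rose by 16.1% in the same line, with 77.4, 77.4 and 79.2 CPM after icaritin against 70.0, 61.8 and 69.7 CPM in DMSO (0.22 ± 0.064, adjusted p = 0.00561). Without replicate 2 of these DMSO libraries the rise of PSMG2 was 0.16 with adjusted p = 0.0727, the highest of a range that began at 5.73e-04. In SNT-8, PSMG1 had 73.5, 75.8 and 68.2 CPM after icaritin, against 67.9, 66.2 and 63.0 CPM in DMSO (0.14 ± 0.060, adjusted p = 0.0461), a call lost in 15 of 26 alternatives, over which the adjusted p ran between 0.00192 and 0.183. In SNK-10 neither passed the threshold, with PSMG1 at 0.07 and PSMG2 at 0.03.

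PSMG3 and PSMG4 form the PAC3-PAC4 pair. PSMG4 was the weakest of the 46 genes in counts, with 2.79, 4.61 and 5.60 CPM in icaritin libraries of SNT-8 against 6.27, 8.61 and 6.11 CPM in DMSO libraries. It fell by 37.8% in SNT-8 (−0.69 ± 0.197, adjusted p = 0.00367), by 37.0% in SNK-10 (−0.67 ± 0.196, adjusted p = 0.00451) and by 35.7% in SNT-16 (−0.64 ± 0.178, adjusted p = 0.00337). Its SE was the widest among the 46 genes in each line, and the SNT-8 call was lost without replicate 1 of the icaritin libraries (−0.45, adjusted p = 0.0606) or replicate 2 of the DMSO libraries (−0.51, adjusted p = 0.0550), in a range of 5.1e-04 to 0.0606. PSMG3 fell in SNK-10, with 19.1, 19.9 and 20.8 CPM after icaritin against 28.0, 26.0 and 27.7 CPM in DMSO (−0.45 ± 0.096, adjusted p = 1.39e-04), and lay at −0.03 in SNT-8 and −0.08 in SNT-16, short of the threshold. Among the 19S chaperones, PSMD5 fell by 0.26, 0.25 and 0.30 in SNT-8, SNK-10 and SNT-16. PSMD9 fell in SNT-8 (−0.19 ± 0.078, adjusted p = 0.0398), and not in 9 of 26 alternatives (adjusted p between 0.0239 and 0.199). PSMD10, also known as gankyrin, lay at −0.07, 0.10 and 0.17 with none past the threshold.

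Whether the response differed between lines was tested with an interaction term over the 3 lines. It passed for 11 of the 46 genes, against 14.3% of all genes tested, and for 6 to 14 when a library was left out (6 without SNT-16 icaritin replicate 3, DMSO replicate 1 or DMSO replicate 2, and 7 without SNT-8 DMSO replicate 3, SNK-10 icaritin replicate 2 or SNK-10 DMSO replicate 1). PSMB9 (adjusted p = 6.33e-04) and PSME4 (8.99e-04) had the smallest values, followed by PSMG1 (0.00704) and PSMD3 (0.010). PSMD3, a lid subunit, fell by 0.55 in SNT-8, by 0.28 in SNK-10 and by 0.37 in SNT-16, and the first of these differences, SNK-10 minus SNT-8, was 0.28 ± 0.067 (adjusted p = 0.00467). In SNK-10 minus SNT-8, 5 of the 46 responses differed (10.9%), a count near the share of all genes (10.8%). PSMB8, PSMB9, PSMD2 and PSMD3 were higher (6.69% of all genes) and PSMG3 was lower (4.08% of all genes). PSMB9 passed in all 25 alternatives for this difference. The call was lost for PSMD2 in 17 of them (difference down to 0.11, adjusted p of 0.0125 to 0.258 over all), for PSMG3 in 9 (0.00911 to 0.111), for PSMB8 in 4 (0.00915 to 0.131) and for PSMD3 in 3 (9.17e-04 to 0.0778). With library size alone the PSMB8 difference was 0.15 (adjusted p = 0.131) and that of PSMD3 0.20 (adjusted p = 0.0522). In SNK-10 minus SNT-16, 7 of the 46 differed (15.2%, against 12.5% of all genes). PSMB9 was higher (6.74% of all genes), and PSMD1, PSMD12, PSMD14, PSME3, PSME4 and PSMG1 were lower (5.77% of all genes). The calls of PSMB9, PSMD12, PSME4 and PSMG1 held in all 25 alternatives, while that of PSMD1 was lost in 18 (adjusted p of 0.00256 to 0.167 over all), that of PSMD14 in 15 (0.00809 to 0.167) and that of PSME3 in 14 (0.00301 to 0.136). PSME4 (−0.35 ± 0.071, adjusted p = 6.81e-04), PSMG1 (−0.35 ± 0.087, adjusted p = 0.00463) and PSMB9 differed by similar amounts. In SNT-16 minus SNT-8, 0 of 46 passed with edgeR (0.438% of all genes), 16 had an unadjusted p under 0.05, and DESeq2 called 3 and limma 0. These differences share libraries with each other and with the single-line contrasts.

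The lines also differed before treatment. In DMSO libraries of SNK-10, 28 of the 46 genes were lower and 5 higher than in SNT-8, where 27.8% of all genes were lower and 29.9% higher (57.6% called). Against SNT-16, 21 were lower and 7 higher in SNK-10, where 27.7% of all genes were lower and 30.1% higher (57.8% called). Between SNT-16 and SNT-8, 9 were lower and 4 higher in SNT-16, with 7.34% and 5.89% of all genes (13.2% called); the 9 became 4 without DMSO replicate 1 or 3 of SNT-8 or 1 or 2 of SNT-16. With library size alone and with both limma fits 4 were lower and 6 higher, so the balance between the directions turned. The DMSO libraries of SNK-10 did not overlap with those of SNT-8 for 37 genes (64.6% of all genes) or with those of SNT-16 for 36 (65.1%), and those of SNT-16 did not overlap with those of SNT-8 for 31 (33%). PSMB1, a non-catalytic core subunit, differed most. It had 71.4, 72.7 and 69.4 CPM in SNK-10, against 145, 141 and 143 CPM in SNT-8 and 149.7, 138 and 137 CPM in SNT-16. All 3 SNK-10 libraries lay well below the other 6, at −1.01 ± 0.053 against SNT-8 (adjusted p = 1.76e-19) and −0.99 ± 0.053 against SNT-16 (adjusted p = 2.69e-19). After icaritin it fell by 13.7% in SNK-10.

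PSMB7 followed at −0.61 against SNT-8 and −0.52 against SNT-16, with 111 ± 1.6 CPM in SNK-10, against 169 ± 4.29 CPM in SNT-8 and 159 ± 0.779 CPM in SNT-16 (SD, n = 3 each). The ATPase PSMC1 was lower in SNK-10 by 0.57 and 0.32. PSMB3, another core subunit, was lower in SNK-10 by 0.35 against SNT-8 and by 0.43 against SNT-16. Higher in SNK-10 were PSME3, at 0.51 ± 0.046 against SNT-8 and 0.41 ± 0.046 against SNT-16, PSMF1 at 0.47 and 0.28, PSMD5 at 0.38 and 0.25, and PSMC4 at 0.12 and 0.27. The PSMC4 call against SNT-8 was lost in 8 of 26 alternatives (difference down to 0.08, adjusted p of 0.00490 to 0.234). PSMB8 was higher in SNK-10 than in SNT-16 by 0.14 ± 0.046 (adjusted p = 0.0108). With library size alone that difference was 0.08 (adjusted p = 0.110) and without SNT-16 DMSO replicate 1 it was 0.12 (adjusted p = 0.0555), in a range of 8.95e-04 to 0.110. PSMB9 was lower in SNK-10 than in SNT-16 by 0.36 and than in SNT-8 by 0.15, the smaller of these a call lost without SNK-10 DMSO replicate 3 (adjusted p = 0.0596, in a range of 0.00199 to 0.287). The 0.287 came from the fit with a replicate block (difference −0.10). Between lines that fit compares the fitted levels of replicate 1, not the group means. Between SNT-16 and SNT-8 the gaps were smaller: the ATPase PSMC3 was lower in SNT-16 by 0.36, while PSMA7 was higher by 0.28, PSMB9 by 0.22 and PSMF1 by 0.18. The comparisons with SNK-10 share its DMSO libraries.

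Genes that work with the proteasome were read from 5 lists chosen with results of these data known. Their counts stand beside the all-gene shares of 25% lower and 24% higher in SNT-8, 24% lower and 24.4% higher in SNK-10, and 20.8% lower and 21.2% higher in SNT-16. Of 11 tested partners of the particle, 8 fell and 1 rose in SNT-8, 5 fell and 3 rose in SNK-10, and 4 fell and 2 rose in SNT-16, with medians of −0.24, −0.12 and −0.08. The 3 rises in SNK-10 are near the share of all genes. ADRM1, a ubiquitin receptor of the 19S particle, fell by 0.36, 0.46 and 0.20 in SNT-8, SNK-10 and SNT-16. UBE3C, a ubiquitin ligase bound to the proteasome, fell by 0.46, 0.42 and 0.30. ZFAND5, a proteasome activator, fell in SNT-8 and SNT-16, by 0.38 and 0.28, and was at −0.10 in SNK-10 (adjusted p = 0.0517). POMP, the chaperone of beta ring assembly, named after its values were seen, fell by 0.20 in SNT-8, by 0.22 in SNK-10 and by 0.15 in SNT-16.

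Among 7 regulators of proteasome genes, 3 rose and 2 fell in each line, with medians of 0.01, 0.05 and 0.04 in SNT-8, SNK-10 and SNT-16. The number that fell is near the share of all genes. NFE2L1 rose in all 3 while most of the subunits it is known to activate were lower. It had 612, 609 and 592 CPM in icaritin libraries of SNT-8, against 235, 238 and 249 CPM in DMSO libraries (1.33 ± 0.042, adjusted p = 3.18e-25). The rise was 2.51-fold in SNT-8, 2.58-fold in SNK-10 (463.5, 463.4 and 485 CPM after icaritin, against 185, 181 and 182 CPM in DMSO) and 2.37-fold in SNT-16 (545, 540.2 and 560.1 CPM after icaritin, against 234, 233 and 227 CPM in DMSO). The NFE2L1 protein is known to be cut by the protease DDI2. The DDI2 transcript, also named after its values were seen, fell by 0.33, 0.34 and 0.41 in SNT-8, SNK-10 and SNT-16. NGLY1 of the same list, named in the same way, changed less. In SNT-8 it had 43.1, 39.9 and 44.9 CPM after icaritin, against 49.0, 46.6 and 46.4 CPM in DMSO. In SNK-10 it had 36.8, 35.6 and 36.2 CPM, against 38.1, 36.1 and 38.5 CPM. In SNT-16 it had 45.8, 47.0 and 48.6 CPM, against 45.2, 44.5 and 48.2 CPM. No protein was measured, and a part of DDI2 or NGLY1 in the levels of the subunits was not tested. MAFK, a small partner of NFE2L1 and NFE2L2, fell by 0.82 in SNT-8, by 1.17 in SNK-10 and by 0.55 in SNT-16. MAFG, another such partner named after its values were seen, went the other way. It had 85.5, 91.2 and 89.0 CPM after icaritin in SNT-8, against 75.6, 70.4 and 71.3 CPM in DMSO. In SNK-10 it had 51.3, 49.9 and 43.7 CPM, against 41.3, 36.9 and 35.3 CPM. In SNT-16 it had 80.6, 87.3 and 92.3 CPM, against 63.1, 72.4 and 70.2 CPM. NFE2L2, the oxidative stress factor, rose by 0.18 in SNT-8, 0.51 in SNK-10 and 0.16 in SNT-16.

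Of 16 genes of ubiquitin supply and substrate delivery, 11 fell and 2 rose in SNT-8, and 7 fell and 2 rose in SNK-10 and in SNT-16. The medians were −0.25, −0.08 and −0.10, where 24% or less of all genes fell in SNK-10 and SNT-16. The shuttle UBQLN4 fell by 0.78, 0.66 and 0.65, and the segregase VCP, which extracts ubiquitinated proteins, by 0.61, 0.66 and 0.52. ZFAND2A, a stress-induced proteasome-binding protein also called AIRAP, rose 1.75-fold in SNT-8, 2.11-fold in SNK-10 and 1.97-fold in SNT-16.

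Of 13 genes of MHC class I antigen processing, the pathway that immunoproteasome products feed, 6 fell and 1 rose in both SNT lines, and 4 fell and 4 rose in SNK-10, near the shares of all genes in that line. The medians were −0.07 in SNT-8, 0.01 in SNK-10 and −0.04 in SNT-16. The chaperone CALR fell by 0.74, 0.68 and 0.65, its partner PDIA3 by 0.51, 0.48 and 0.31, and NLRC5, the transactivator of class I and immunoproteasome genes, by 0.51, 0.43 and 0.64 in SNT-8, SNK-10 and SNT-16. TAP1, the peptide transporter gene that lies next to PSMB9, was chosen after its values were seen. It rose in SNK-10, with 407, 410.5 and 394 CPM after icaritin against 363, 369 and 354 CPM in DMSO (0.16 ± 0.044, adjusted p = 0.00274), and did not pass the threshold in SNT-8 (−0.07, adjusted p = 0.185) or SNT-16 (−0.04, adjusted p = 0.476). TAP2 of the same list, also chosen after its values were seen, went the other way in SNK-10. It had 241, 251 and 247 CPM after icaritin there, against 297, 297 and 281 CPM in DMSO. In SNT-8 and SNT-16 every icaritin library of TAP2 also lay below every DMSO library.

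Of 10 interferon regulators, 7 rose and 1 fell in SNK-10, with a median of 0.33 and 24.4% of all genes higher. In SNT-8 3 rose and 3 fell (median −0.05), near the shares of all genes, and in SNT-16 3 rose and 4 fell (median −0.04). IRF1, an interferon-induced transcription factor named after its values were seen, rose in SNK-10 (0.23 ± 0.053, adjusted p = 4.16e-04) and fell in SNT-8 and SNT-16, by 0.32 and 0.23. IFNG, the gene of interferon gamma, fell in all 3 lines, by 1.6 in SNT-8, 1.04 in SNK-10 and 0.71 in SNT-16, and JAK1, a kinase of its receptor, rose by 0.49, 0.61 and 0.45. Their part in the PSMB9 result was not tested.

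Promoter sequences from RefSeq (GRCh38.p14) were found for 40 of the 46 genes, and the 250 bases before each start were searched on both strands for 8 motifs, with 0 windows in which matches of different motifs overlapped. The antioxidant response element core TGACNNNGC, to which NFE2L1 and NFE2L2 bind with a MAF partner, was in 13 of the 40 genes (32.5%) and in 13.2% of 27305 genes of the table. The CCAAT box was in 18 (45%), against 37%, and the interferon-stimulated response element core (GAAA, any 2 bases, GAAA) in 5 (12.5%), against 3.71%. The NFE2-type TGACTCAGC, the heat shock element GAANNTTC, the CREB site TGACGTCA, the gamma activated site TTCCNGGAA and an NF-kB core, found in between 0.568% and 7.05% of all genes, had no match in these windows. The median log2 fold change of the average of the 3 lines was −0.17 for the 13 genes with TGACNNNGC and −0.26 for the 27 without. A match describes letters in a window and does not show a site in use.

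The promoters of the immunoproteasome trio are shown because these genes answered differently, and those of PSMD12 and PSMG1 because PSMD12 fell furthest of the 19S subunits and PSMG1 rose, while both hold the NFE2L1 motif. Capitals mark matches to TGACNNNGC, CCAAT or the interferon-stimulated core on either strand, and the windows, given 5′ to 3′ on the strand of the gene, are chr6:32844680-32844929 (minus strand, the first of 2 listed starts) for PSMB8, chr6:32853942-32854191 (plus) for PSMB9, chr16:67936851-67937100 (minus) for PSMB10, chr17:67366578-67366827 (minus) for PSMD12 and chr21:39183452-39183701 (minus) for PSMG1.
PSMB8: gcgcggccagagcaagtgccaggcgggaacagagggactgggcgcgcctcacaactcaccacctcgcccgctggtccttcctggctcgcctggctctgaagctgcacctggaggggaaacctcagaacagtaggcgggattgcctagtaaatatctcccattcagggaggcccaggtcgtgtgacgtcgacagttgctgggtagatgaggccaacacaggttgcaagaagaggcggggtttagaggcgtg
PSMB9: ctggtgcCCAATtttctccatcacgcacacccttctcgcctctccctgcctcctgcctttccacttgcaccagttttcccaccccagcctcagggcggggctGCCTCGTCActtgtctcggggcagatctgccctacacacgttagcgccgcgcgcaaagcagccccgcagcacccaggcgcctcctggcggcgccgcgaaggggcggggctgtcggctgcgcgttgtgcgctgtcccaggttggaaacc
PSMB10: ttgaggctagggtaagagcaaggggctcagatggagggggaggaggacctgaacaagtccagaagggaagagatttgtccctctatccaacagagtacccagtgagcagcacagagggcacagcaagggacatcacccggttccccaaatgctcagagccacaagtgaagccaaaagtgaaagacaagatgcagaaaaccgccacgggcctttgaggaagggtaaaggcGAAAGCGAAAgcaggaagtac
PSMD12: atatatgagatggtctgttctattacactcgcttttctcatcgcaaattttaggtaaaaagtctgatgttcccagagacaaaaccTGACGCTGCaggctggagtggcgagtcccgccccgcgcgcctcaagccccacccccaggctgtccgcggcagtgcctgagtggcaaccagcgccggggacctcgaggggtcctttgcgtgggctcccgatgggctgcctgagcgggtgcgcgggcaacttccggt
PSMG1: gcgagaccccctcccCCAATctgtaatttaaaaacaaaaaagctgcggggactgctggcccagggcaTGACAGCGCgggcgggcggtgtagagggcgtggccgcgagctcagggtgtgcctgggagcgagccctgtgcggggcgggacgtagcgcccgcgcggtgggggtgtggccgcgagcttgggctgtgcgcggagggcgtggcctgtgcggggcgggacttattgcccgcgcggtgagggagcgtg
PSMB8, which fell in every line, holds none of the 3 motifs in this window. PSMB9 holds TGACNNNGC on the opposite strand and a CCAAT, and PSMB10 holds GAAAGCGAAA, which PSME2 and PSMG4 also hold. PSMD12 and PSMG1 each hold TGACNNNGC, with PSMD12 at −0.58 ± 0.035 and PSMG1 at 0.21 ± 0.035 on the average of the 3 lines.

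Some members overlap other genes on the annotation, and the sources used here do not state whether counting used strand. Of the 46 genes, 9 overlap another tested gene, 7 of them one with at least 10% of the member's CPM. PSMB8 overlaps its antisense RNA PSMB8-AS1 (mean of 183 CPM for PSMB8 and 123 CPM for the antisense RNA over all libraries), which fell by 0.30 in SNT-8 and 0.14 in SNT-16 and stood at −0.09 in SNK-10. PSMA3 overlaps PSMA3-AS1, which fell by 0.29 in SNT-8 and 0.27 in SNK-10 and stood at −0.11 in SNT-16. Without strand, reads of a gene and its antisense partner cannot be told apart, so the values of PSMB8 and PSMA3 are uncertain to that extent. The rest of the 7 were PSMB7, PSMC2, PSMC5, PSMD10 and PSMG2. PSMC2 (151 CPM) overlaps PMPCB (91.6 CPM), PSMC5 (154 CPM) overlaps FTSJ3 (82.7 CPM) and PSMB7 (140 CPM) overlaps LOC100129034 (45.7 CPM). Reads in a shared stretch may belong to either gene, and the effect on these members was not tested.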

How the data were processed

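RNA levels of 3 cell lines under icaritin or DMSO were taken from a table per library. Per the file headers, the authors deposited an expected count, an FPKM value and a transcript length in bases for each gene. The submitters' processing notes name Bowtie2 and HISAT, with no version, and no genome build or quantifier is given in the sources used here. A gene missing from a library was set to 0, since the lowest listed FPKM was 0.01. Of 21662 NCBI Gene IDs, 21559 were named by ID and 24 by transcript, and 79 had no name.

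Expected counts were rounded and fitted in edgeR 4.0.16 under R 4.3.3, with TMM scaling, 1 mean for each of the 6 groups and robust quasi-likelihood tests (12 residual degrees of freedom, two-sided). The filter needed a count of about 10 in enough libraries and 15 in total, which 14396 genes passed, and p-values were adjusted over all of them by the Benjamini-Hochberg method with a threshold of 0.05. SE is the absolute log2 fold change over the square root of F. The script was tested on simulated data. Levels between genes were compared by FPKM, and levels of a gene between libraries by CPM. Depth ran between 9526431 and 10100453 counts, so PSMG4, at under 10 CPM, is the least precise member. DESeq2 1.42.0 and limma 3.58.1 on log2(FPKM + 0.1) or log2(FPKM + 1), other scalings, no filter, a fit of only the libraries compared, a replicate block and leaving out each library were tried as alternatives.

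The members and lists were chosen with earlier results of these data known. Named genes were the catalytic subunits PSMB5 to PSMB10, PSME1, PSME2 and the chaperones, the 3 largest called rises and falls in each contrast, the 4 smallest interaction p-values, up to 3 genes of each pathway list with the smallest p, NFE2L1 and NFE2L2, and members needed to describe a class of mixed response. Of the partner list, SEM1 was not tested. A gene of the pathway lists that this rule names is not reported here. Replicate numbers were not treated as pairs, since no label says that they pair libraries.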

Additional observations from a re-analysis of the deposited data

Results flagged for a closer look

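The response to icaritin differed between the 3 lines for 11 members by the interaction test of edgeR, with 14.3% of all genes tested past the same threshold. The adjusted p was 6.33e-04 for PSMB9, 8.99e-04 for PSME4 and 0.00704 for PSMG1, and these 3 passed in all 25 alternative settings. PSMB9 was higher after icaritin in SNK-10 and lower in SNT-8 and SNT-16, PSME4 was lower in SNT-8 and SNK-10 and level in SNT-16, and PSMG1 was highest in its response in SNT-16.

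The other 8 were past the threshold in some settings and not in others. For the 19S subunits the adjusted p was 0.010 for PSMD3, 0.0142 for PSMD14, 0.0227 for PSMC2, 0.0248 for PSMD12, 0.0272 for PSMD2 and 0.0418 for PSMD1. For the chaperone PSMG3 it was 0.0430 and for the immunoproteasome subunit PSMB8 0.0437. PSMB8 was not past the threshold in 17 of 25 alternatives (adjusted p between 0.0246 and 0.224), PSMD1 in 16 (0.00369 to 0.167) and PSMG3 in 15 (0.0119 to 0.123).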

How the results depend on the processing

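The counts of members lower after icaritin lay between 33 and 38 in SNT-8, 29 and 36 in SNK-10 and 22 and 27 in SNT-16 over all settings, and no named call changed sign in any setting run. The count of members higher in SNT-8, 1 (PSMG1), was 0 with DESeq2, with no filter, with only the libraries compared in the fit and with the replicate block, and 0 to 1 when a library was left out. The same range, 0 to 1, held for the rise in SNK-10, and 1 to 2 for SNT-16, where a fit of only the libraries compared gave 4. Leaving out a library moved the interaction count of 11 to between 6 and 14, with 6 without SNT-16 icaritin replicate 3, DMSO replicate 1 or DMSO replicate 2, and 7 without SNT-8 DMSO replicate 3, SNK-10 icaritin replicate 2 or SNK-10 DMSO replicate 1. Between DMSO libraries of SNT-16 and SNT-8, the 9 lower members became 4 with library size alone and with limma at either pseudocount, 15 with only the libraries compared, and 4 to 13 when a library was left out, with 4 without replicate 1 or 3 of SNT-8 or replicate 1 or 2 of SNT-16; the 4 higher ones became 6 with library size alone, with limma at either pseudocount and with only the libraries compared, and 3 to 4 when a library was left out. The cause was not tested.

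Replicate numbers did not pair the libraries: the correlation of same-numbered deviations ran between −0.058 and 0.055 over 9 pairs, and 3 of 9 icaritin libraries correlated best with their own number. With the replicate block the interaction count was 7. For DMSO libraries of different lines, the block as set up compares the fitted levels of replicate 1, not the group means. Its counts there cannot show how the group comparisons depend on pairing. They were 13 lower in SNK-10 against SNT-16 (21 from the group means), and 4 lower and 2 higher in SNT-16 against SNT-8.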
